A study of Mus musculus with 4 samples.

Results

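The simple epithelial keratins are Krt8, Krt18, Krt19 and Krt7, 4 of the 27670 genes named on the arrays, and they were found by searching the non-control spots for these symbols or their older names. They were covered by 6 of 41174 probes, and all 6 passed the filter on dim signal. RNA came from mouse embryonic stem cells of the line ZHBTc4, whose only source of Oct4 (Pou5f1) is a transgene that doxycycline shuts off. Per the labels, the cells had been grown on irradiated embryonic fibroblasts and then passaged on gelatin. Cells given doxycycline (2 µg) together with TCP for 48 h (dox+TCP) and cells given doxycycline alone for 48 h (dox, titled the control) were each measured as 2 biological replicates. TCP is not spelled out in the labels; in work on the histone demethylase LSD1, the subject of the series' title, it usually stands for the LSD1 inhibitor tranylcypromine. Each treated sample was labelled with Cy5 and hybridised against Cy3-labelled RNA of ZHBTc4 cells for which the labels name no treatment, here called the reference. All samples are thus of the same line, both treated groups carry the shut-off, and doxycycline itself cannot be told apart from the loss of Oct4.

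Keratins are the intermediate filament proteins of epithelial cells, and each filament is built from pairs of a type II and a type I chain. Krt8 and Krt7 are type II, and Krt18 and Krt19 are type I. Krt8 and Krt18 are the main pair of single-layered epithelia and among the first keratins of the mouse embryo, where they mark the trophectoderm, the outer layer that gives rise to the placenta. Undifferentiated embryonic stem cells are known for low keratin levels, and loss of Oct4 is known to turn them toward trophoblast, so these genes are commonly used as readouts of that change.

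The shut-off was visible on every array. The log2 ratio of Pou5f1, treated over reference, was -3.29 and -3.28 in dox+TCP replicates 1 and 2 and -3.38 and -3.62 in dox replicates 1 and 2 (limma adjusted p = 0.0146 and 0.0105 for the means of dox+TCP and dox). All 9 measured embryonic stem cell markers were well above background in the reference on all 4 arrays. Between 68.8% and 78.1% of the spots were well above background per channel and array, and none was saturated. Both replicate 1 arrays lay on 1 slide, and each replicate 2 array lay on a slide of its own. The dox+TCP replicate 2 array alone was scanned on the second of 2 scan days. Dyes were not swapped, so a dye bias of a probe stays in every ratio over the reference. The labels do not say whether the reference RNA of different arrays came from 1 extract. Over genes, Pearson's r of the Cy3 levels was 0.999 for the pair of replicate 1 arrays and 0.981 to 0.989 for every other pair.

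The promoters of the members are shown first, and their part in the levels given below was not tested. Krt8 and Krt18 are neighbours on chromosome 15 with 2 annotated genes between them, Krt7 is on the same chromosome, and Krt19 is on chromosome 11. RefSeq promoter sequence of assembly GRCm38.p6 was matched for 3 of the 4 members, with the 250 bases before the annotated start printed 5′ to 3′ on the strand of the gene; Krt19 had no match. Capitals mark matches to the motifs searched on both strands: TATAAA for the TATA box, TGANTCA for AP-1, GGGCGG for the Sp1 GC box, CAGGAAG for ETS factors, GGAATG for TEAD, TTTATG for CDX2 and GCCNNNGGC for AP-2.
Krt8, chr15:102004343-102004592, minus strand: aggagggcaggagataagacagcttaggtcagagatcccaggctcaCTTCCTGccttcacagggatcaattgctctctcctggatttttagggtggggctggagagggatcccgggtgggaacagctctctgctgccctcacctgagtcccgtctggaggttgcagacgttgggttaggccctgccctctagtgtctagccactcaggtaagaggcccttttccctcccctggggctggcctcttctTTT
Krt18, chr15:102027966-102028215, plus strand: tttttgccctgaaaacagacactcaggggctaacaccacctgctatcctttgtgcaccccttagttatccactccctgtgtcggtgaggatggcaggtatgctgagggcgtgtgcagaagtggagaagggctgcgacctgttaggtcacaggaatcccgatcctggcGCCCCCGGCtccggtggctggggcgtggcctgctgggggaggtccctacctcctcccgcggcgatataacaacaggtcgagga
Krt7, chr15:101412153-101412402, plus strand: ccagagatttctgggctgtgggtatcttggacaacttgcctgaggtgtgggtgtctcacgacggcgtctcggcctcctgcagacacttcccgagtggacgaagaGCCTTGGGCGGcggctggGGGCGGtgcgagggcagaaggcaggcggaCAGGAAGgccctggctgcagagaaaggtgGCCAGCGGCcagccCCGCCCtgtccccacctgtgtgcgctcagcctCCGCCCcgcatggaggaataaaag
The Krt8 window held 1 ETS match, and its final capitals are the first bases of TATAAA matches on both strands that run across the start. The Krt18 window held 1 AP-2 match. The Krt7 window held 4 GC boxes, of which 1 overlaps 1 of its 2 AP-2 matches, and 1 ETS match. No motif was common to all 3 windows. Among 32851 promoter windows of 300 bases, TATAAA occurred in 13.62%, the GC box in 35.66%, the ETS letters in 13.27% and the AP-2 letters in 16.59%. AP-1, TEAD and CDX2 letters, not found in these 3 windows, occurred in 7.81%, 14.66% and 11.85%. These matches describe letters in a window and are not measured binding.

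Levels are given on the log2 scale as normalized intensities of 1 probe per gene, so they may be compared between samples for 1 gene and not between genes. All 4 keratins were bright in the treated cells on every array, and the reference did not hold 1 level. On the replicate 2 arrays the reference was 6.09-fold (Krt7) to 8.30-fold (Krt8) brighter than on the replicate 1 arrays. Both replicate 2 reference levels exceeded both replicate 1 levels by at least 2 on the log2 scale for 4 of 4 keratins, against 0.136% of the 21348 genes with all levels (29 genes, the keratins included). In RNA from a mass of cells, fewer cells that express a keratin and less keratin RNA per cell cannot be told apart.

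Krt8, the type II partner of Krt18, was measured by probe A_51_P242399 for transcript NM_031170, at chr15:101983072-101983131 on the minus strand of mm7. Its Cy5 level was 16.40 and 16.64 in dox+TCP replicates 1 and 2 and 17.12 and 16.90 in dox replicates 1 and 2. The Cy3 level of the reference was 16.43 (dox+TCP) and 16.34 (dox) on the replicate 2 arrays, against 13.49 (dox+TCP) and 13.18 (dox) on the replicate 1 arrays. In order of level, dox stood highest, dox+TCP and the replicate 2 reference overlapped below it, and the replicate 1 reference lay far under all of these. The raw mean Cy3 signals, before background correction and dye normalization, differed likewise: they were 52954 and 45687 on the replicate 2 arrays of dox+TCP and dox and 8188 and 6587 on their replicate 1 arrays. The second Krt8 probe, A_51_P242400 (chr15:101982940-101982999, minus strand), had dox highest and the replicate 1 reference lowest as well, with dox+TCP (16.25 and 16.31) just above the replicate 2 reference (16.20 and 16.17). Its reference was 2.44 higher on the log2 scale on replicate 2 than on replicate 1 arrays, against 3.05 for the first probe.

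Krt18, the type I partner of Krt8, was measured by probe A_51_P324814 (NM_010664, chr15:102018067-102018126, plus strand, mm7). Its Cy5 level was 17.42 and 17.47 in dox+TCP replicates 1 and 2 and 17.82 and 17.55 in dox replicates 1 and 2. The reference stood at 16.37 and 16.11 on the replicate 2 arrays of dox+TCP and dox and at 13.47 and 13.07 on their replicate 1 arrays. Krt18 was the only one of the 4 whose treated levels were above every reference level by more than 1, in both groups. The dox+TCP levels lay just under the dox levels, with 17.47 and 17.55 as the nearest pair.

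Krt19, a type I keratin without the tail domain of the other type I chains, was measured by probe A_51_P356642 (NM_008471, chr11:100250117-100250176, minus strand, mm7). Its Cy5 level was 12.13 and 13.49 in dox+TCP replicates 1 and 2 and 13.52 and 13.72 in dox replicates 1 and 2. The reference stood at 13.51 and 13.60 on the replicate 2 arrays of dox+TCP and dox and at 10.58 and 10.73 on their replicate 1 arrays. Dox+TCP replicate 1 was low among the treated samples, which made Krt19 the most variable keratin in Cy5, with a range of 1.59 over the 4 arrays against 0.40 to 0.72 for the others. The replicate 2 reference overlapped with the treated levels.

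Krt7, a type II keratin found with Krt19 in many simple and ductal epithelia, was measured by probe A_51_P312348 (AK137217, chr15:101413898-101413957, plus strand, mm7). Its Cy5 level was 14.66 and 15.24 in dox+TCP replicates 1 and 2 and 15.31 and 15.07 in dox replicates 1 and 2. The reference stood at 15.06 and 15.07 on the replicate 2 arrays of dox+TCP and dox and at 12.26 and 12.66 on their replicate 1 arrays. Dox+TCP, dox and the replicate 2 reference overlapped on this probe. The second Krt7 probe, A_52_P410685 (NM_033073, chr15:101409444-101409503, plus strand), differed more between the references, by 3.23 against 2.61 for the first. On the second probe dox+TCP (11.83 and 12.18) lay below dox (12.40 and 12.24), and the replicate 2 reference (12.16 and 12.41) overlapped with both.

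**Figure D1:**
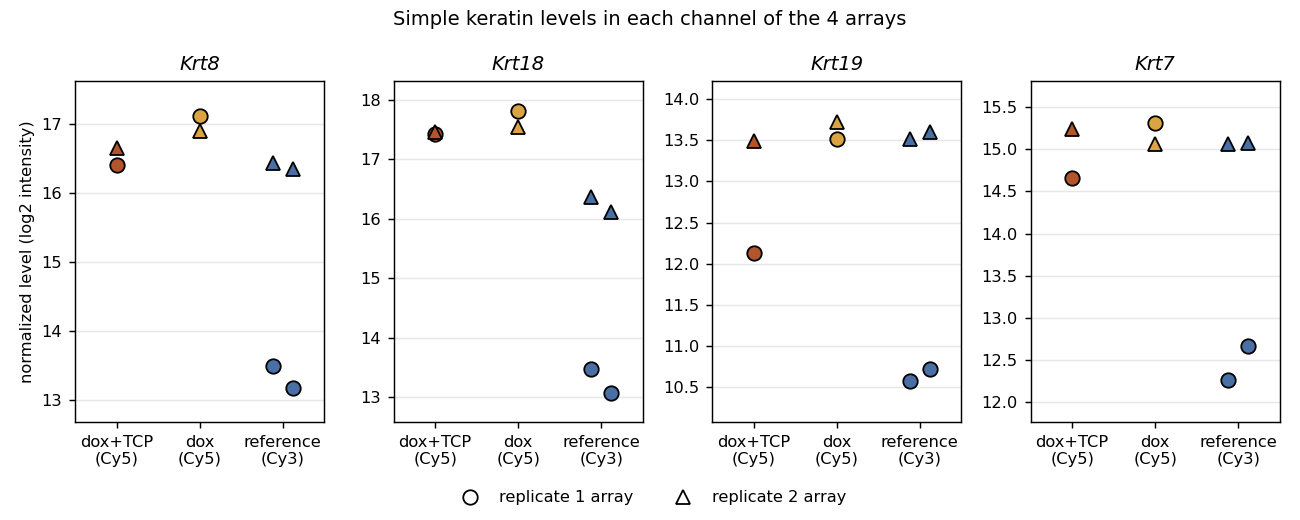
Normalized log2 intensity of Krt8, Krt18, Krt19 and Krt7 in dox+TCP (Cy5), dox (Cy5) and the reference (Cy3), with 1 point per array, circles for replicate 1 arrays and triangles for replicate 2 arrays; each panel has its own vertical range. In the reference, the left point of each shape is from the dox+TCP array and the right from the dox array, and the circles lie 2.40 to 2.85 below the nearest triangle.

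Set against all genes, the reference difference of the keratins was large. By the mean of replicate 2 minus replicate 1 arrays, Krt8 (3.05) ranked 5, Krt18 (2.97) ranked 7, Krt19 (2.90) ranked 11 and Krt7 (2.61) ranked 17 of 21348 genes, whose median difference was 0.07. At a gap of at least 1, 135 genes (0.632%) were higher in both replicate 2 references and 75 (0.351%) were lower. Replicate and slide cannot be told apart for this difference, and no test was made, since the arrays are not known to carry separate reference samples.

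Markers of other cell types also differed between these references. Of 12 measured trophoblast markers, 5 were higher by at least 1 on both replicate 2 arrays (Esx1 and Plac1 among them), and the summed processed Cy3 intensity of the list was 40692 to 46716 on replicate 2 and 17268 to 19604 on replicate 1 arrays. All 12 were well above background on every array in the reference, and Eomes, a regulator of trophoblast stem cells, averaged 7.74 on replicate 2 and 7.89 on replicate 1 arrays. Of the 9 embryonic stem cell markers 0 differed by that much, with sums of 707220 to 1045500 on replicate 2 and 766690 to 888700 on replicate 1 arrays. Of 10 primitive endoderm markers 1 was higher on replicate 2 arrays (sums of 8519 to 12163 against 7027 to 7040 on replicate 1), and of 7 stratified epithelium markers 1, Krt14, was higher (6176 to 6704 against 5357 to 5404). Of 11 fibroblast markers, chosen for the feeder cells, 0 were higher and 3 were lower on replicate 2 arrays, with sums of 4228 to 5013 against 11235 to 11323 on replicate 1. The Cy5 sums of the treated cells went the same way for the primitive endoderm, stratified epithelium and fibroblast lists. On replicate 2 arrays the fibroblast Cy5 sums were 4427 (dox+TCP) and 4822 (dox), against 10758 and 5615 on replicate 1. Those of the trophoblast list went the other way, at 61398 and 88634 against 74817 and 138820. The part of any of these cell types in the keratin difference was not tested.

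**Figure D2:**
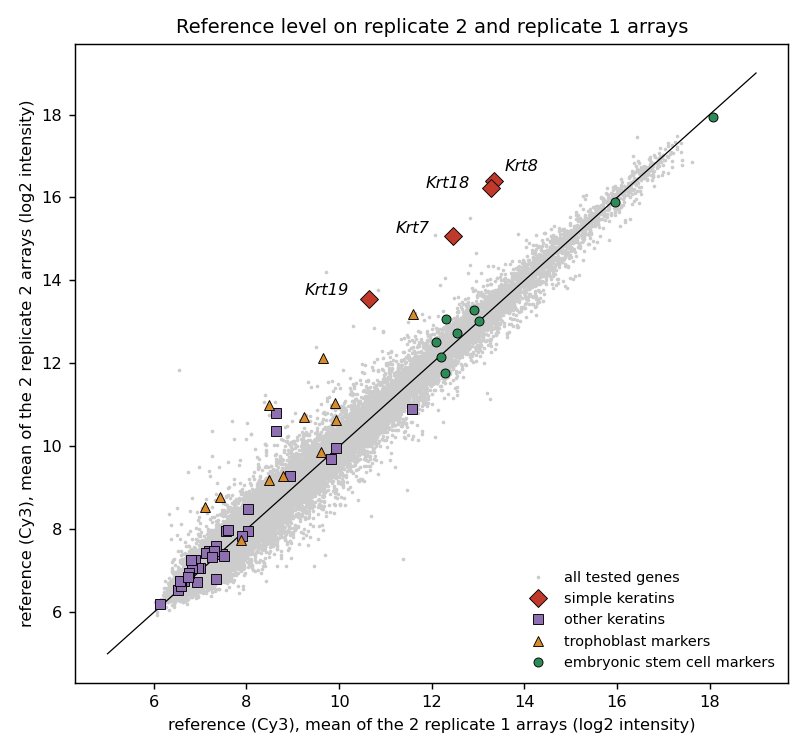
Mean normalized log2 Cy3 intensity of the reference on the 2 replicate 2 arrays (vertical) against the 2 replicate 1 arrays (horizontal) for all tested genes in grey, with keratins and marker lists in colour and the line of equality. The 4 simple keratins lie 2.61 to 3.05 above the line, while the embryonic stem cell markers lie near it.

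The ratios on each array follow from these levels. On the replicate 1 arrays all 4 keratins were at least 2-fold higher in treated cells than in the reference in both groups, as were 3.1% of all genes. On the replicate 2 arrays 1 of 4, Krt18, was, as were 2.43% of all genes. Krt18 was 15.5-fold and 2.14-fold over its reference in dox+TCP replicates 1 and 2, and 26.9-fold and 2.72-fold in dox replicates 1 and 2. Krt8 was 7.54-fold and 1.16-fold over its reference in dox+TCP replicates 1 and 2, and 15.4-fold and 1.48-fold in dox replicates 1 and 2. The small excess in dox+TCP replicate 2 turned with the normalization: the scanner software's own log10 ratio put Krt8 below its reference there, at -0.032 on this probe and -0.030 on the second. For Krt19 and Krt7 the replicate 2 ratios lay between 0.987-fold and 1.13-fold. On dox replicate 1, Krt18 ranked 3 and Krt8 ranked 9 of all 21411 genes by ratio, and on dox replicate 2 they ranked 247 and 2382.

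Whether the keratins changed in treated cells was then tested over both replicates of each group. In dox+TCP against the reference 0 of 4 keratins passed limma's test at an adjusted p of 0.05, with 15.4% of the 21411 tested genes called, 7.31% higher and 8.08% lower. The mean log2 ratio was 1.56 ± 1.11 for Krt8, 2.53 ± 1.12 for Krt18, 0.76 ± 0.80 for Krt19 and 1.29 ± 0.89 for Krt7 (SE, n = 2; limma adjusted p = 0.41, 0.22, 0.57 and 0.40). The median over the 4 was 1.43, against 0.03 over all genes tested. Each mean was positive, and for Krt18, the highest, the 95% interval ran from -0.67 to 5.72.

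In dox against the reference, which addresses the loss of Oct4 without TCP, 0 of 4 passed as well, with 14.6% of genes called, 6.32% higher and 8.28% lower. The mean log2 ratio was 2.25 ± 1.11 for Krt8, 3.10 ± 1.12 for Krt18, 1.46 ± 0.80 for Krt19 and 1.32 ± 0.89 for Krt7 (SE, n = 2; limma adjusted p = 0.27, 0.16, 0.31 and 0.40). The mean was positive for each, and the 95% intervals all held 0; for Krt18 it ran from -0.10 to 6.29. The median over the 4 was 1.85, against -0.001 over all genes tested. With median centring in place of loess, Krt18 passed in dox (mean 3.96, limma adjusted p = 0.038). A test that misses its threshold at this spread does not show equal levels. Both comparisons share the reference and are not independent. Set against the mean replicate 1 reference instead, the treated levels of replicate 2 were higher by 3.31 (Krt8), 4.20 (Krt18), 2.84 (Krt19) and 2.78 (Krt7) in dox+TCP, and by 3.57, 4.28, 3.07 and 2.61 in dox. These last values cross arrays and slides.

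**Figure D3:**
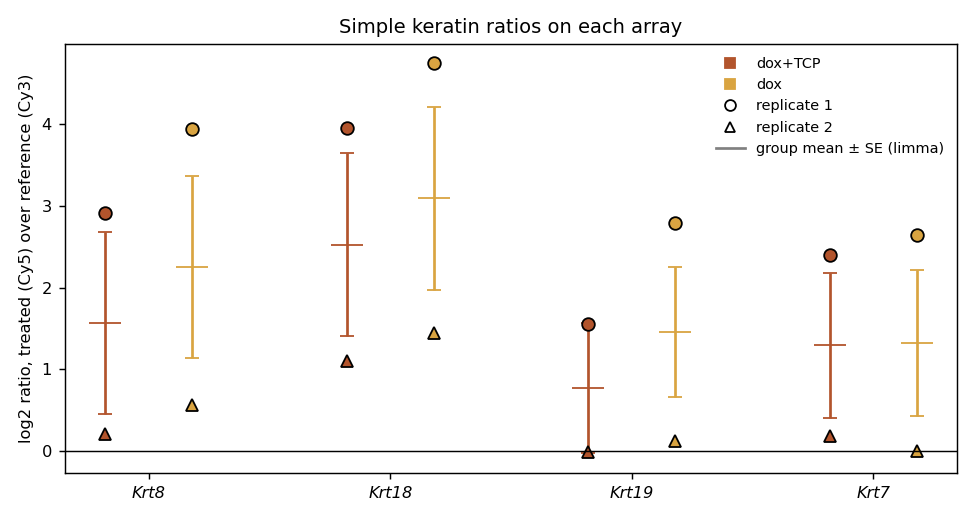
Log2 ratio of treated (Cy5) over reference (Cy3) for each keratin in dox+TCP and dox, with circles for replicate 1, triangles for replicate 2, and the group mean with its limma SE. Every circle lies between 1.55 and 4.75, and every triangle except those of Krt18 (1.097 and 1.44) lies between -0.02 and 0.56.

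The study's own comparison is dox+TCP against dox, the effect of TCP while Oct4 is lost. By log2 ratio, 0 of 4 keratins and 0% of all genes passed (943 genes had an unadjusted limma p under 0.05). Krt8 differed by -0.69, Krt18 by -0.57, Krt19 by -0.69 and Krt7 by -0.03, with limma adjusted p of 0.996 for the first 3 and 1.00 for Krt7. The intervals were wide, from -5.17 to 3.78 for Krt8. The sign turned positive for all 4 without dox replicate 1 (1.00, 1.08, 0.64 and 1.30 for Krt8, Krt18, Krt19 and Krt7) and without dox+TCP replicate 2 (0.66, 0.86, 0.09 and 1.08), each of which sets 1 reference on one side against the mean of both on the other. Within the shared slide, dox+TCP minus dox was -1.03 for Krt8, -0.79 for Krt18, -1.24 for Krt19 and -0.25 for Krt7. Between the replicate 2 arrays, which were on separate slides and scan days, it was -0.35, -0.35, -0.14 and 0.19.

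The Cy5 levels give this comparison without a ratio to the reference. The dye normalization and the scaling between arrays used both channels, so the reference still enters these levels, their intervals and their bounds. Both dox+TCP levels were below both dox levels for 3 of 4 keratins, Krt8, Krt18 and Krt19, as they were for 11.5% of all genes. For Krt7 this separation depended on the probe and the scaling. On its second probe dox+TCP (11.83 and 12.18) was below dox (12.40 and 12.24). The scanner software's processed Cy5 intensity of its first probe was 59784 and 66007 in dox+TCP replicates 1 and 2, against 93470 and 86678.5 in dox. The mean Cy5 level in dox+TCP and in dox was 16.52 and 17.01 for Krt8, 17.44 and 17.69 for Krt18, 12.81 and 13.62 for Krt19, and 14.95 and 15.19 for Krt7. The differences, with 95% intervals, were -0.49 (-1.09 to 0.12) for Krt8, -0.24 (-0.83 to 0.35) for Krt18, -0.81 (-1.97 to 0.35) for Krt19 and -0.24 (-0.96 to 0.49) for Krt7. None passed (limma adjusted p = 1.00 each), and 0% of all genes did, with 340 genes at an unadjusted p under 0.05. The upper bounds lie below a 2-fold rise for all 4, and the lower bounds of Krt8 and Krt19 reach past a 2-fold fall.

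The other keratins of the array showed little of this. Of 42 on the array, 33 were tested. Counts here and in the lists below are to be set beside the shares of all genes called. These were 7.31% higher and 8.08% lower in dox+TCP, and 6.32% higher and 8.28% lower in dox. In dox+TCP 0 were called higher and 2 lower, Krt12, a keratin of the cornea, and Krt28, with mean log2 ratios of -0.46 and -0.74 (limma adjusted p = 0.045 and 0.026). Krt12 was close to background in treated cells, with 1 of the 2 dox+TCP arrays well above it. In dox 0 were called higher and 2 lower, Krt28 and Krt17, a keratin of hair follicles and injured epidermis, with means of -0.74 and -1.68 (limma adjusted p = 0.026 and 0.034). The median log2 ratio of the 33 was -0.04 in each group, and their median reference difference was 0.11. Krt13 and Krt14 were the 2 of 33 whose replicate 2 references were both higher by at least 1. Krt13, a type I keratin of internal stratified epithelia, had Cy5 levels of 10.61 and 10.93 in dox+TCP and 11.14 and 11.47 in dox, against references of 10.76 and 10.86 on replicate 2 arrays and 8.53 and 8.74 on replicate 1 arrays of dox+TCP and dox. Krt14, a keratin of basal epidermis, differed between replicates in both channels: its Cy5 level was 10.87 (dox+TCP) and 10.40 (dox) in replicate 2, against 8.57 and 8.40 in replicate 1, and its reference stood at 10.35 and 10.39 against 8.68 and 8.62.

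Other intermediate filament genes were also measured. Of 15, 0 rose and 4 fell in dox+TCP (Nefl, Nefm, Nefh and Lmnb2), and 0 rose and 5 fell in dox (Vim, Ina, Nefl, Nefm and Nefh). Vim, the filament protein of mesenchymal cells, averaged -0.50 ± 0.24 in dox+TCP and -1.33 ± 0.24 in dox (SE, n = 2 each; limma adjusted p = 0.26 and 0.046). With median centring 2 rose and 4 fell in each group. Nefl, the light neurofilament chain, averaged -2.75 in dox+TCP and -2.64 in dox (SE 0.13, n = 2 each; limma adjusted p = 0.016 and 0.013).

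Proteins that anchor keratins were measured through 18 genes. In dox+TCP 0 rose and 3 fell, Pkp3 (plakophilin 3), Jup (plakoglobin) and Fam83h, which binds keratins, with means of -0.77, -0.98 and -2.09 (limma adjusted p = 0.028, 0.042 and 0.026). In dox 2 rose and 2 fell. Dsp (desmoplakin, which ties keratin filaments to desmosomes) rose by 1.80 ± 0.29 and Ppl (periplakin) by 1.39 ± 0.15 on the log2 scale, while Evpl (envoplakin) averaged -0.86 ± 0.13 and the keratin-binding Tchp (trichoplein) -0.58 ± 0.11 (SE, n = 2; limma adjusted p = 0.038, 0.022, 0.034 and 0.049). Each of these genes had a mean of the same sign in the other group. In dox, Pkp3, Jup and Fam83h averaged -0.53, -0.78 and -1.22 (limma adjusted p = 0.055, 0.064 and 0.061). In dox+TCP, Dsp, Ppl, Evpl and Tchp averaged 1.46, 0.77, -0.44 and -0.20 (limma adjusted p = 0.054, 0.052, 0.11 and 0.31). None of them passed in dox+TCP against dox. Dsp had ratios of 1.69 and 1.23 in dox+TCP and 2.31 and 1.30 in dox on replicates 1 and 2, and its reference averaged 11.34 on replicate 2 and 11.08 on replicate 1 arrays. The median log2 ratio of the 18 was -0.14 in dox+TCP and -0.22 in dox. These counts depend on the scaling: with median centring 3 rose and 1 fell in dox+TCP and 6 rose and 0 fell in dox, with medians of -0.03 and 0.07. Evpl and Tchp, at -0.36 and -0.09, then no longer passed in dox.

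Transcription factors tied to simple keratin promoters or to trophoblast, of which 20 were tested, were mixed. The AP-1 subunits Fos and Jund rose in both groups, to means of 1.16 and 1.23 in dox+TCP and 0.92 and 1.05 in dox (limma adjusted p = 0.028 and 0.018 in dox+TCP and 0.041 and 0.020 in dox). In dox+TCP 2 fell, Klf4 and the epithelial factor Grhl2, and in dox 3 fell, Klf4, Klf5 and the AP-1 subunit Fosl1. With median centring 7 rose and 2 fell in dox+TCP and 9 rose and 2 fell in dox. Klf4, also an embryonic stem cell factor, averaged -2.23 in dox+TCP and -2.22 in dox. Cdx2, the trophectoderm factor, also had higher ratios on replicate 1 arrays. They were 2.87 and 0.17 in dox+TCP and 3.39 and 0.73 in dox on replicates 1 and 2 (limma adjusted p of the means 0.37 and 0.25). Its treated level differed between replicates as well as its reference. The Cy5 level was 11.94 and 10.54 in dox+TCP and 12.80 and 11.77 in dox replicates 1 and 2. Its reference averaged 10.71 on replicate 2 and 9.24 on replicate 1 arrays. The 12 trophoblast markers had median log2 ratios of 0.72 in dox+TCP and 1.22 in dox, and of 1.00 and 1.72 with median centring. Of these markers 0 were called in dox+TCP, and in dox 1 rose and 0 fell. With median centring 3 rose in dox+TCP and 6 in dox, and 0 fell in either group. Not every mean was positive: Eomes averaged 0.11 in dox+TCP and -0.17 in dox. The 9 embryonic stem cell markers had 6 fall in dox+TCP and 9 in dox, with medians of -2.49 and -2.87; with median centring 6 fell in each group.

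**Figure D4:**
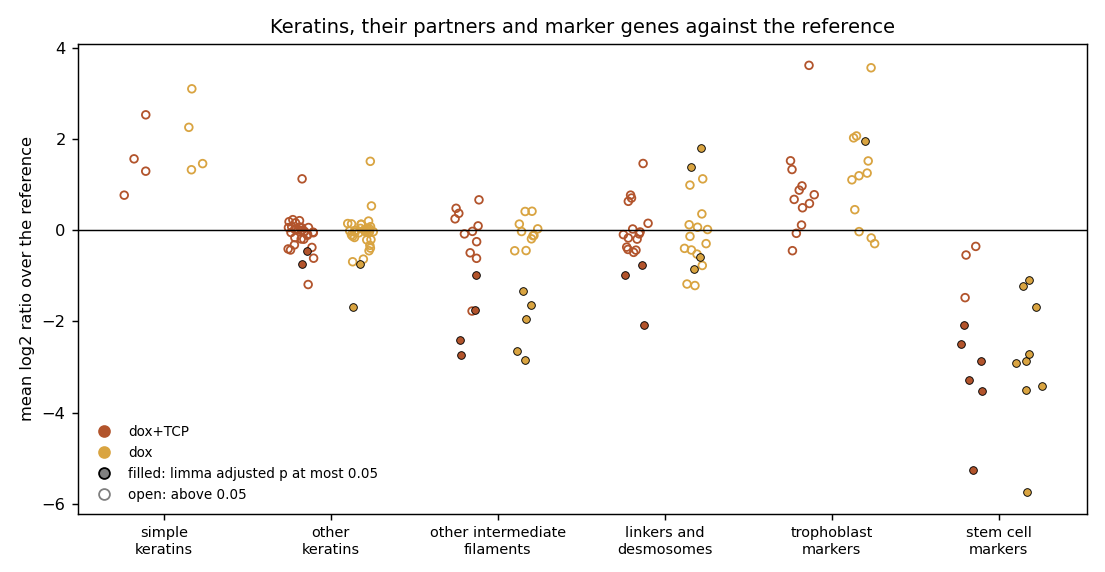
Mean log2 ratio over the reference for each tested gene of 6 lists in dox+TCP (left of each pair) and dox (right); filled points had a limma adjusted p of at most 0.05. The 4 simple keratins lie between 0.76 and 3.10 with open points, and the embryonic stem cell markers lie below 0.

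Over the 4 Cy5 and 4 Cy3 levels, each of the 4 keratins was lowest in the replicate 1 references. That gap enters every r below, and r without those references is not given here. As a description over these 8 channel levels, which share arrays and references, Pearson's r was highest for Krt8 with Krt7 (0.980) and Krt8 with Krt18 (0.976) and lowest for Krt18 with Krt19 (0.852). Among 1349 other genes whose 8 levels spanned at least 2, the profiles most like the keratins' mean were those of Krt13 (0.989), Rhox6 (0.985), Ndrg1 (0.984), Prss8 (0.983), Rhox9 (0.982), Afap1l2 (0.979), Fthl17a (0.970) and Dppa1 (0.969). Rhox6 and Rhox9 are X-linked homeobox genes, Prss8 is an epithelial membrane protease and Ndrg1 is a stress-responsive gene. Their reference difference, replicate 2 minus replicate 1 arrays, ranged from 1.36 for Afap1l2 to 3.13 for Dppa1. Gene by gene, Krt8 was most like Rhox6 (0.990), Krt18 most like Rhox9 (0.995), Krt19 most like Ddn (0.992) and Krt7 most like Dppa1 (0.980). The 3 genes closest to Krt19 (Ddn, Pcdh12 and Batf3) were not among those closest to the other members.

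**Figure D5:**
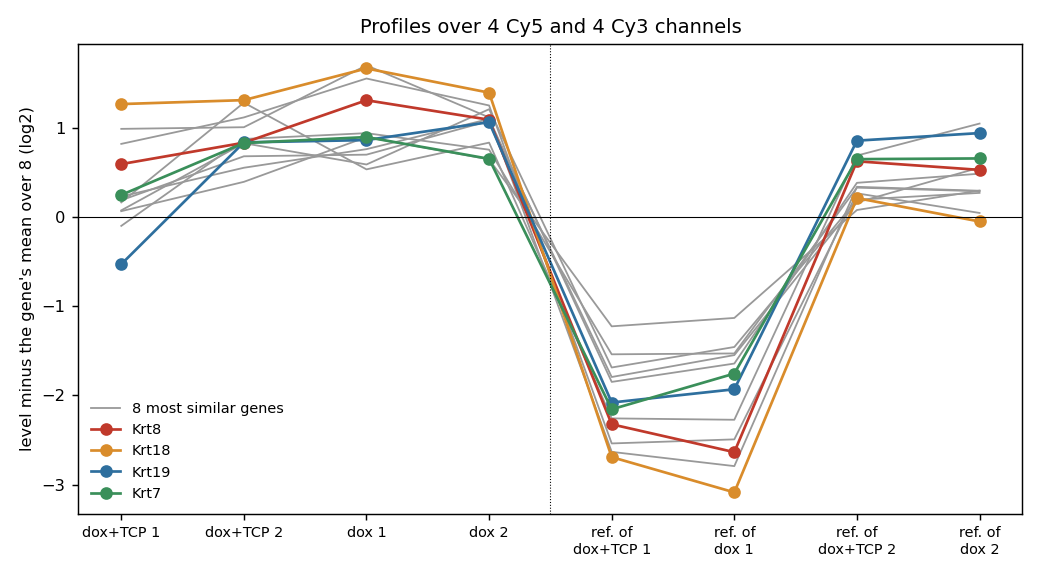
Level minus the gene's own mean over 8 channels (log2), for the 4 keratins in colour and the 8 genes with the most similar profiles in grey, with dox+TCP and dox replicates 1 and 2 in Cy5 left of the dotted line and the reference on each array right of it. All lines are lowest in the reference of the replicate 1 arrays, and Krt19 departs from the other keratins in dox+TCP replicate 1.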

How the data were processed

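RNA of dox+TCP and dox samples (Cy5) and the reference (Cy3) was measured on 4 two-colour Agilent arrays. Spot and background intensities are linear values from Agilent Feature Extraction 10.1.1.1, with mm7 annotation, per the file headers; its log10 ratios were dye-normalized, and the authors' deposited series matrix matched them within 0.005 on every spot. Further steps: not given in the sources used here.

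In limma 3.58.1 (R 4.3.3), normexp (offset 50; local backgrounds over 2 times the array median replaced by it) and loess preceded a fit of 1 mean for each group on all 4 arrays (2 residual degrees of freedom), eBayes and Benjamini-Hochberg adjustment at 0.05; outlier spots were left out. Adjusted p-values cover the 21411 tested genes, each by its brightest probe. Tested probes were well above background in Cy5 on 2 arrays of 1 group, or in Cy3 on all 4. Levels per channel were scaled by Aquantile. The number of arrays limits the precision. Symbols came from a GRCm38.p6 table (8455 of 41174 probes kept the file's name).

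The members and lists were chosen with earlier results of these data known. Genes named beside the members are up to 4 per list by adjusted p, those past a stated count, and the 8 (3 per member) most similar profiles; Eomes, Cdx2 and Krt14 were named after their values were seen. The fit was tested on simulated data. Alternatives varied background, scaling, filter, probes, blocks and samples. One gene that these rules take is not reported here.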

Additional observations from a re-analysis of the deposited data

How the results depend on the processing

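The log2 ratios of the 4 keratins over the reference did not pass in the fit reported, and most alternatives left them so. Median centring, used instead of loess, shifted the all-gene median by 0.14 in dox+TCP and 0.18 in dox, brought Krt18 in dox past the threshold (3.96, limma adjusted p = 0.038), and called 5107 genes in dox+TCP and 6021 in dox, of which 78.34% and 81.12% were higher, against 47.48% and 43.28% of the 3296 and 3126 called in the fit reported. No listed gene that was called changed sign under it or under the scanner ratios. The replicate numbers are shared in the labels, but nothing there says that a number pairs samples; deviations of same-numbered arrays correlated at 0.47 (log2 ratio). With a replicate block 5146 genes were called in dox+TCP and 4874 in dox. The ratios, which it does not move, then passed for Krt8, Krt18 and Krt7 in dox+TCP (1.56, 2.53 and 1.29; adjusted p = 0.017, 0.012 and 0.016), not for Krt19 (adjusted p = 0.10), and for Krt8, Krt18, Krt19 and Krt7 in dox (2.25, 3.10, 1.46 and 1.32; adjusted p = 0.012, 0.0088, 0.033 and 0.015). This block takes the difference between replicates 1 and 2 out of the error. Its p-values therefore do not measure the spread of a group mean over replicates. The block left 0 calls in dox+TCP against dox. Backgrounds as read called 0 genes against the reference in both groups (1965 genes in dox+TCP and 1899 in dox had an unadjusted limma p under 0.05), as did scan day as a block (3601 and 5140). Only dox+TCP replicate 2 was scanned on the second day, so scan day as a block takes up that array alone. Dox+TCP minus dox was then the same as without that array: 0.66 for Krt8, 0.86 for Krt18, 0.0923 for Krt19 and 1.08 for Krt7. An effect of scan day cannot be read from these values. The arrays of 1 group alone called 5934 genes in dox+TCP and 0 in dox. The cause of these shifts in the counts was not tested.

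Leaving out each array in turn, which leaves a lone array assumed to vary like the other group, called 0 to 5934 genes in dox+TCP and 0 to 4122 in dox. The dox+TCP ratios ran from 0.21 to 2.91 for Krt8, 1.097 to 3.95 for Krt18, -0.0194 to 1.55 for Krt19 and 0.18 to 2.40 for Krt7. The dox ratios ran from 0.56 to 3.94, 1.44 to 4.75, 0.12 to 2.79 and -0.0044 to 2.65 for the same genes. The turned signs are Krt19 without dox+TCP replicate 1 and Krt7 without dox replicate 1. Dox+TCP minus dox ran from -2.38 to 1.00, -2.22 to 1.08, -2.03 to 0.64 and -1.36 to 1.30. That comparison called 0 genes in all 17 alternatives. The second probes of Krt8 and Krt7, an alternative chosen after seeing the data, gave 1.29 and 1.47 in dox+TCP and 1.88 and 1.52 in dox. Slide as a fixed block leaves no residual degrees of freedom and was not run.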
